A study of Mus musculus with 26 samples.

Results

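Thymocytes carry sialic acid and branched sugars on the glycoproteins and glycolipids of their surface, and a small set of Golgi enzymes decides which sugars are added. The transcripts of 9 such enzymes were followed here through positive selection of CD8 T cells: the sialyltransferases St3gal1, St3gal2, St3gal4, St3gal6, St6gal1, St8sia1 and St8sia4, the core 2 branching enzyme Gcnt1 and the N-glycan branching enzyme Mgat5. They are defined by gene symbol, 9 of the 46517 in the table, and all 9 passed the filter on low values described with each test.

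The study sorted thymocytes from mice whose T cell receptor transgenes give low (TG6), intermediate (F5) or high (OT-1) self-reactivity, to ask how self-reactivity shapes gene expression during positive selection. TG6 mice were H2b/d on a cross of C57/BL6 with B6.C-H2d/bByJ and kept their Rag genes, whereas F5 mice were Rag1KO and OT-1 mice Rag2KO, both on C57/BL6. The study's methods give the age of the mice only as a span of weeks, from young to adult and separate for its neonatal experiments, and none per sample. From each mouse 3 populations were sorted. Early positive selection denotes CD4+CD8+CXCR4+CCR7- cells. Late positive selection denotes cells that are CD4+CD8+CXCR4-CCR7+, and mature CD8SP those that are CD4-CD8+CXCR4-CCR7+. Each group had 3 mice, except TG6 late with 2, which gave 26 libraries in 9 groups. F5 and OT-1 thymocytes, which lack a Rag gene, can make no receptor but the transgenic one, whereas TG6 thymocytes can still rearrange their own. Receptor, strain and Rag status cannot be told apart in a comparison between lines that includes TG6. Between F5 and OT-1 the receptor and the deleted Rag gene cannot be told apart.

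Values are normalized read counts, and the libraries summed to 16134786 to 18944173 of them. Pearson's r of log2 values was 0.95 to 0.978 between libraries of a group and 0.888 to 0.961 between libraries of different groups. All 7 thymocyte markers (Cd3e, Cd3g, Lck, Cd8a, Cd8b1, Thy1, Themis) were present. Their summed level was lower in OT-1 than in both other lines at each stage, at 77083 to 90788 against 126027 to 138976 early, 69813 to 78462 against 97690 to 115664 late and 78661 to 84202 against 86495 to 114517 in mature libraries. The B cell list summed to 449 to 529 in OT-1 early, 216 to 413 in OT-1 late and 533 to 678 in OT-1 mature, and to 178 to 397 in all TG6 and F5 libraries. Its gene Blk, a kinase that some T cells also express, held 302 to 361, 90.0 to 207 and 319 to 443 of these in OT-1, against 52.3 to 185 in TG6 and 8.74 to 35.9 in F5. The defining marker Pax5 was listed at 0 in every F5 library and in every OT-1 late and mature library. The highest Pax5 value, 61.0, was in a TG6 early library. Other lists moved with stage or line. The 5 preselection genes (Rag1, Rag2, Dntt, Cd24a, Arpp21) summed to 83356 to 93060 in TG6 early, 38793 to 48329 in F5 early and 21544 to 26232 in OT-1 early, and to 3120 to 21368 in all late and mature libraries. The 12 cell-division genes summed to 47269 to 98493 in early libraries, 590 to 8881 in late ones and 17897 to 86704 in mature ones. They also differed between lines. TG6 early libraries held 47269 to 51422, below the 69136 to 98493 of F5 and OT-1 early. OT-1 mature libraries held 76546 to 86704, above F5 mature (19995 to 57817) and TG6 mature (17897 to 72448). The library TG6 mature replicate 3 stood apart from the other TG6 mature libraries on both lists, with the top value of each. The 4 NK and innate genes summed to 4.85 to 113 in early, 124 to 1643 in late and 1329 to 2796 in mature libraries, mostly Nkg7, a granule gene of cytotoxic cells that reached 2793, while Klrb1c did not exceed 15.3 and Ncr1 was listed at 0 in every library. The 2 gamma delta genes (Trdc, Sox13) summed to 1686 to 3366 in TG6 and 6499 to 12343 in F5 and OT-1. The 7 dendritic cell genes summed to 91.9 to 541 in early, 47.1 to 478 in late and 160 to 1246 in mature libraries, and in every line each mature library was above each late one. Among them the MHC class II genes H2-Aa and H2-Ab1 reached 421 and 566, whereas Clec9a did not exceed 34.8. The macrophage and monocyte list summed to 211 to 347 in early, 101 to 222 in late and 84.1 to 168 in mature libraries, and the plasma cell list to 1568 to 1918 in TG6 early and 589 to 1503 in all other libraries. The erythroid list summed to 20.3 to 700, its top in OT-1 early. The CD4 and regulatory T cell list summed to 7.43 to 469, its top in OT-1 late. The part of these lists in the results below was not tested. In sorted bulk RNA, fewer cells of a type and less RNA per cell cannot be told apart.

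Sialic acid is the outermost sugar of many thymocyte glycans. Immature cortical thymocytes expose unsialylated core 1 O-glycans, which bind peanut agglutinin, and this binding is lost as cells mature and ST3Gal-I caps those glycans, a change also known to alter how CD8 binds MHC class I. ST6Gal-I adds sialic acid in another linkage on N-glycans, core 2 branching by Gcnt1 competes with ST3Gal-I for the same O-glycans, the ST8Sia enzymes extend sialic acid chains, and Mgat5 makes the N-glycan branches that galectins bind and that raise the threshold of T cell receptor signaling.

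Per kilobase of merged exon, St6gal1 had the highest mean level of the 9 genes in 8 of the 9 groups. It ranged from 491 normalized counts per kilobase in F5 early, where St8sia1 was above it at 513, to 1551 in OT-1 late. This scale lets genes be compared, but it counts all annotated exons, expressed or not, so the order depends on the annotation. In TG6 late St6gal1 (957, SD 32.7) and St3gal1 (948, SD 46.3) were close. So were they in TG6 mature (656, SD 145, and 624, SD 185) and F5 mature (689, SD 91.1, and 629, SD 111). St3gal1 ranged from 197 in TG6 early to 948 in TG6 late, St8sia1 from 293 to 586, and Mgat5 from 118 to 400. St3gal2 ranged from 21.6 to 381 and St3gal4, St8sia4 and St3gal6 from 19.8 to 132. Gcnt1 was the lowest of the 9 in every group, at 0.288 to 3.33. The other sections use normalized counts, which compare one gene between samples and not genes with each other.

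**Figure D1:**
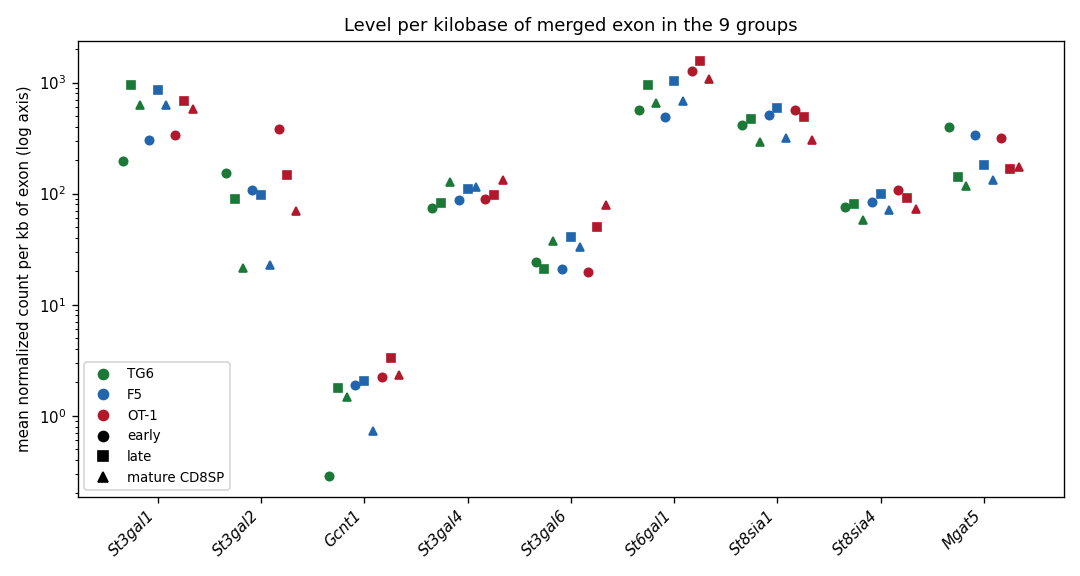
Mean normalized count per kilobase of merged exon (log axis) for each of the 9 genes in each of the 9 groups; colour gives the line and symbol the stage, and each point is the mean of 3 libraries (2 for TG6 late). St6gal1 lies between 491 and 1551, the highest of the 9 in every group but F5 early (St8sia1, 513), and Gcnt1 lowest, between 0.288 and 3.33.

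A gene was called changed when its adjusted p from a limma fit over 16372 genes was under 0.05. Between OT-1 and TG6, 7 of the 9 genes were called at early positive selection, 6 higher and 1 lower in OT-1. Of all genes tested there, 27.8% were called, 15.4% higher and 12.4% lower. At late positive selection 2 were called, both higher in OT-1 (15.5% of all genes, 9.34% higher). At the mature CD8SP stage 4 were called, all higher in OT-1 (9.74% of all genes, 4.67% higher). Without TG6 mature replicate 3 the share of all genes called in that comparison was 27.2%, and without any one other of its libraries 4.48% to 7.3%. The late share was 7.76% without TG6 late replicate 1 and 6.72% without replicate 2. Between OT-1 and F5, 2 were called early (12.7% of all genes, 7.81% higher), 1 late (24%, 13.6% higher) and 4 in mature cells (23.3%, 13.3% higher), all higher in OT-1. Between F5 and TG6, 2 were called early (6.46% of all genes, 3.12% higher) and 1 late (4.97%, 1.75% higher), all higher in F5. Without 1 library, the share of all genes fell to 7.83% to 8.09% between OT-1 and F5 early (OT-1 early replicate 2 or F5 early replicate 2 or 3) and to 13.9% in mature cells (F5 mature replicate 3). Between F5 and TG6 it fell to 3.95% to 4.25% early (F5 early replicate 1 or 2 or TG6 early replicate 2 or 3) and to 2.29% to 2.62% late (either TG6 late replicate). None of the 9 was called by limma between F5 and TG6 in mature cells (6.64%), where 1 had an unadjusted p under 0.05. Without TG6 mature replicate 3 Mgat5 was called higher in F5 there (log2 difference 0.31, adjusted p = 0.0222), in a fit where 8.62% of all genes were called. In fits with only the libraries of the groups compared, none of the 4 mature differences between OT-1 and TG6 was called (limma, adjusted p 0.116 to 0.149), where 1.65% of all genes were, nor were the differences of St3gal1 early (0.0901, with 10.2% of all genes called) and Mgat5 late (0.206, with 1.58%) between F5 and TG6. In the same setting Mgat5 was called lower in F5 than in TG6 early (log2 difference -0.25, adjusted p = 0.0426).

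Within lines, the step from early to late changed 4 of the 9 genes in TG6 (25.4% of all genes were called), 4 in F5 (26.7%) and 4 in OT-1 (26.7%). The step from late to mature CD8SP changed 6 in TG6 (22.3%), 5 in F5 (20.5%) and 4 in OT-1 (24.4%). The called genes of the second step were mostly lower in mature cells: 5 of 6 in TG6 (7.79% of all genes were called lower), 5 of 5 in F5 (8.31%) and 3 of 4 in OT-1 (10.4%). The median log2 change of the 9 genes in that step was -0.48 in TG6, -0.48 in F5 and -0.36 in OT-1, beside medians over all genes tested of -0.00045, -0.01 and -0.02. In fits with only the libraries of the groups compared, none of the 6 changes from late to mature in TG6 was called (limma, adjusted p 0.0544 to 0.237), and of all genes 3.85% were. Nor were those of St6gal1, St8sia4 and Mgat5 in F5 (0.0576 to 0.0873, with 7.61% of all genes called) and St3gal2 in OT-1 (0.0785), or the early to late rise of St3gal6 in F5 (0.0862, with 22.5% of all genes called). St3gal6 was called higher in OT-1 mature than late cells in this setting (log2 change 0.64, 0.0158). Without TG6 late replicate 1 or 2 the share of all genes called in TG6 was 16.8% or 16.1% from early to late and 12.9% or 11.5% from late to mature.

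**Figure D2:**
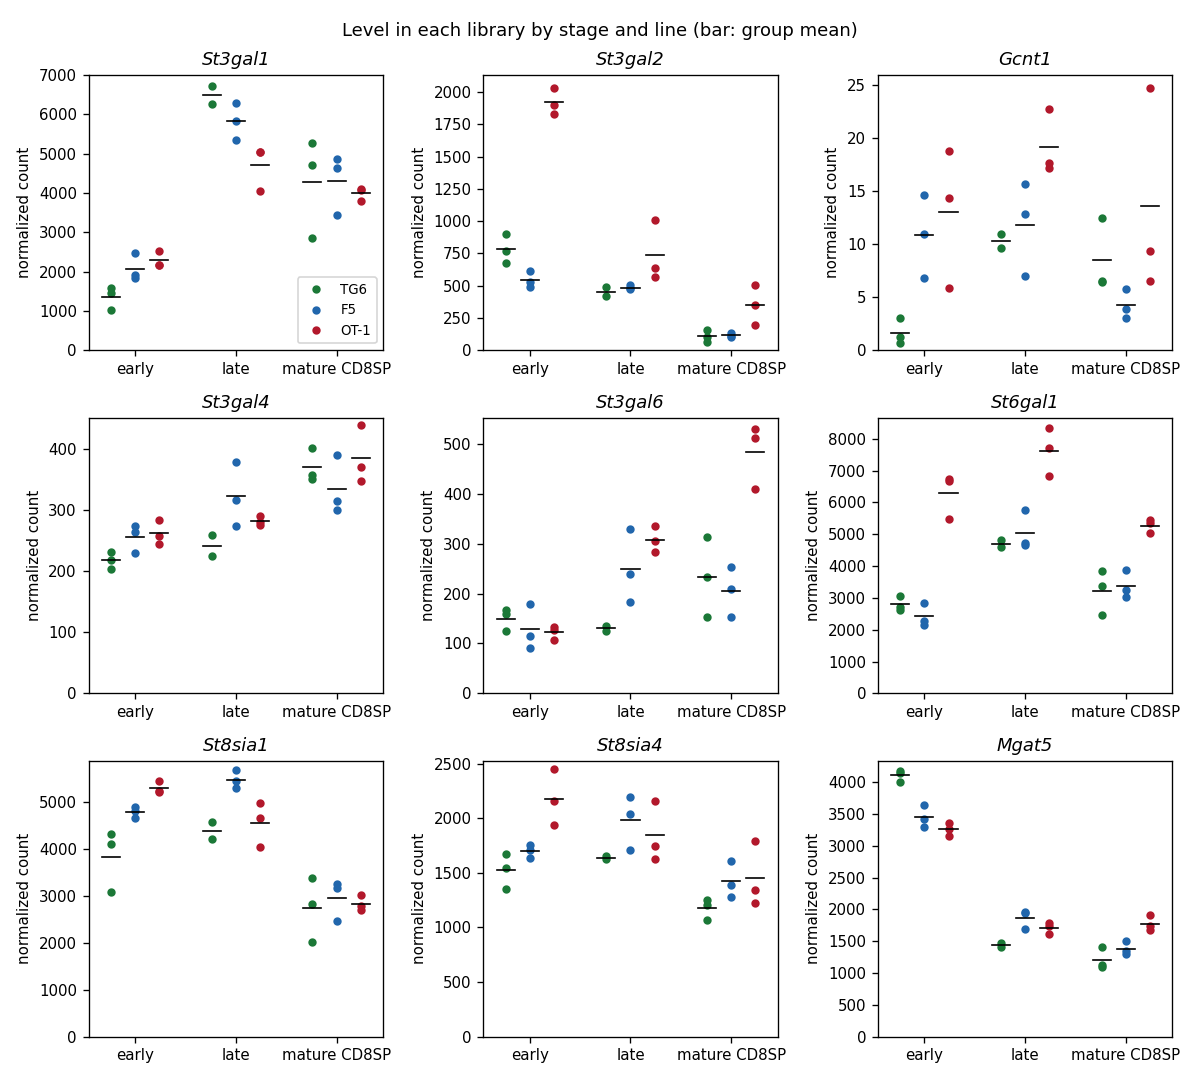
Normalized count (linear axis from 0) of each gene in each of the 26 libraries, by stage and line; points are libraries and bars group means. St6gal1 in OT-1 lies above both other lines at every stage, St3gal1 is lowest and Mgat5 highest in the early populations, and St3gal2 is highest in OT-1 early.

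St3gal1, the enzyme that caps core 1 O-glycans with sialic acid, was low early and high late in all 3 lines. In TG6 it was 1578, 1449 and 1027 normalized counts early, 6722 and 6273 late and 5269, 4708 and 2847 in mature cells. In F5 it was 2469, 1901 and 1843 early, 6285, 5350 and 5829 late and 4862, 3445 and 4626 mature. In OT-1 it was 2529, 2156 and 2173 early, 5049, 4048 and 5031 late and 4076, 4100 and 3805 mature. Early libraries lay below every late and mature library of all lines, with no overlap. St3gal1 rose from early to late by 2.29 ± 0.21 (log2 change ± SE, adjusted p = 4.65e-08) in TG6, a 4.88-fold rise. The rise was 1.5 ± 0.19 (3.88e-06) in F5 and 1.04 ± 0.19 (0.000303) in OT-1. In the early population OT-1 was 0.78 ± 0.19 above TG6 (adjusted p = 0.00391) and F5 0.63 ± 0.19 above TG6 (adjusted p = 0.0495), and the TG6 libraries did not overlap with either. The F5 call was lost without any F5 early replicate or without TG6 early replicate 2 or 3 (adjusted p 0.0672 to 0.246), and in 6 of 9 other settings, both other scalings among them (0.053 to 0.0901). After the late stage St3gal1 fell by 0.65 on the log2 scale in TG6 (SE 0.21, adjusted p = 0.0295), a call lost without TG6 mature replicate 3, TG6 late replicate 1 or TG6 late replicate 2 (0.107 to 0.176). With the replicate number as a block the F5 change was also called (log2 change -0.45, adjusted p = 0.00183), in a fit where 29.3% of all genes were. In the order of group means from TG6 late (6498) to TG6 early (1351), 5 of the 8 neighbouring groups overlapped.

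St3gal2, which sialylates core 1 O-glycans and gangliosides, ran the other way. It was 2035, 1827 and 1897 normalized counts in OT-1 early, against 768, 900 and 674 in TG6 early and 609, 524 and 493 in F5 early. Late libraries held 638, 565 and 1008 in OT-1, 417 and 486 in TG6 and 505, 480 and 470 in F5. Mature libraries held 346, 198 and 505 in OT-1, 104, 64.4 and 158 in TG6 and 103, 107 and 134 in F5. OT-1 early stood above every other library of the series, and mature TG6 and F5 libraries below every other. OT-1 was 1.31 ± 0.28 above TG6 (adjusted p = 0.0016) and 1.83 ± 0.28 above F5 (0.000105) early. It was 1.67 ± 0.28 above TG6 (0.000462) and 1.51 ± 0.28 above F5 (0.000646) in mature cells. At the late stage the 3 OT-1 libraries were also above the others, but neither difference was called. From early to late St3gal2 fell in OT-1 alone among the called results, by 1.43 on the log2 scale (SE 0.28, adjusted p = 0.000707), and the differences between lines in this change were not called. In fits restricted to the groups compared, the TG6 change (log2 change -0.78, adjusted p = 0.0133) and the difference between OT-1 and F5 (-1.27, 0.036) were called too. From late to mature it fell in every line, by 2.14 in TG6 (SE 0.32, 4.86e-05), 2.08 in F5 (SE 0.28, 1.84e-05) and 1.13 in OT-1 (SE 0.28, adjusted p = 0.00598). The OT-1 fall was no longer called without OT-1 mature replicate 2 (adjusted p = 0.0521), the OT-1 mature library with the lowest value.

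Gcnt1, the enzyme that starts core 2 branches on O-glycans such as those of CD43 and PSGL-1, was barely detected, at 0.627 to 24.7 normalized counts in all 26 libraries. TG6 early had the lowest mean, with 1.28, 3.07 and 0.627, against 9.58 and 10.9 in TG6 late. F5 early held 11.0, 14.7 and 6.77, and OT-1 early 18.7, 5.86 and 14.4. The TG6 early libraries lay below all of these. OT-1 was 2.37 ± 0.50 above TG6 early (adjusted p = 0.00118), F5 2.20 ± 0.50 above TG6 early (0.00762), and TG6 late 2.18 ± 0.55 above TG6 early (0.00513), on the log2(value + 1) scale. These sizes depend on the pseudocount, because the TG6 early values are near 0: with a pseudocount of 5 they were 1.38, 1.23 and 1.21, and with 0.1 they were 3.00, 2.82 and 2.81. The F5 call was lost without TG6 early replicate 3 (adjusted p = 0.0557) and the TG6 stage call without TG6 late replicate 2 (0.0518). Mature libraries held 6.56, 6.43 and 12.5 in TG6, 5.72, 3.06 and 3.90 in F5 and 24.7, 9.31 and 6.55 in OT-1, and no difference between them was called in the reported fit. The F5 mature libraries lay below those of both other lines, and OT-1 was called above F5 with quantile normalization (log2 difference 1.46, adjusted p = 0.0444) and without OT-1 mature replicate 3 (1.67, 0.0345).

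St3gal4 and St3gal6 add sialic acid to N-acetyllactosamine chains, a step in making selectin ligands. St3gal4 was the steadiest of the 9 genes, at 204 to 438 normalized counts in all libraries, and no difference between lines was called. It was 350, 357 and 401 in TG6 mature against 224 and 259 in TG6 late, and 370, 438 and 346 in OT-1 mature against 275, 281 and 290 in OT-1 late. The mature libraries lay above the late ones in both lines, and the rises were 0.61 ± 0.15 (adjusted p = 0.00538) in TG6 and 0.44 ± 0.14 (0.0211) in OT-1. The TG6 call was lost without TG6 late replicate 1 (0.0916) and the OT-1 call without OT-1 mature replicate 2 or OT-1 late replicate 1 or 2 (0.0563 to 0.112), and with quantile normalization neither was called (0.0656 and 0.141). Every neighbouring pair in the order of its 9 groups overlapped. In F5, where late held 379, 274 and 316 and early 274, 264 and 230, the change from early to late was not called in the reported fit. It was called with the replicate number as a block (log2 change 0.33, adjusted p = 0.0328), in a fit where 35.6% of all genes were. Quantile normalization (0.47, 0.0125, with 27.4% of all genes called) and leaving out F5 late replicate 2 (0.44, 0.0323, with 24.4%) gave the call too.

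St3gal6 overlapped between the lines in the early populations, at 124, 159 and 167 normalized counts in TG6, 116, 180 and 91.6 in F5 and 127, 132 and 107 in OT-1. Late libraries held 135 and 125 in TG6, 239, 329 and 183 in F5 and 306, 283 and 336 in OT-1. Mature libraries held 234, 313 and 154 in TG6, 209, 153 and 254 in F5 and 410, 512 and 530 in OT-1. OT-1 mature libraries were above all other libraries of the series, and TG6 late libraries stayed within the range of early ones. OT-1 was 1.24 ± 0.29 above TG6 late (adjusted p = 0.00549), a call lost without TG6 late replicate 2 (0.0655). In mature cells OT-1 was 1.10 ± 0.26 above TG6 (0.00962) and 1.26 ± 0.26 above F5 (0.0016). From early to late St3gal6 rose by 1.33 ± 0.26 (0.000624) in OT-1 and 0.97 ± 0.26 (0.00792) in F5, the latter lost without F5 late replicate 2 or F5 early replicate 3 (0.0553 to 0.0611). From late to mature no change of St3gal6 was called in the reported fit. A rise in TG6 was called with a mean of at least 50 (log2 change 0.78, adjusted p = 0.047) and without TG6 mature replicate 3 (1.05, 0.0144). Without F5 late replicate 3, F5 was called above TG6 late (1.10, 0.047). Exons of Dcbld2, a gene on the opposite strand, cover 26.0% of the exon bases of St3gal6, and Dcbld2 itself was at 23.3 to 172 normalized counts. Whether the libraries kept strand is not given in the sources used here, so reads of the shared stretch cannot be assigned.

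St6gal1, the enzyme that makes alpha2,6-linked sialic acid and with it the ligands of CD22, was higher in OT-1 than in both other lines at all 3 stages. Early libraries held 6736, 6668 and 5486 normalized counts in OT-1, 2628, 2714 and 3063 in TG6 and 2831, 2151 and 2266 in F5. Late libraries held 7710, 6826 and 8345 in OT-1, 4817 and 4589 in TG6 and 5759, 4719 and 4653 in F5. Mature libraries held 5347, 5029 and 5449 in OT-1, 3860, 3368 and 2453 in TG6 and 3888, 3028 and 3243 in F5. At no stage did OT-1 overlap with another line. The difference from TG6 was 1.17 ± 0.14 early (adjusted p = 2.79e-06, 2.24-fold), 0.69 ± 0.16 late (0.00461) and 0.73 ± 0.14 in mature cells (0.00191). The difference from F5 was 1.39 ± 0.14 early (6.14e-07, 2.61-fold), 0.60 ± 0.14 late (0.00383) and 0.65 ± 0.14 in mature cells (0.00265). The late difference from TG6 was not called without TG6 late replicate 2 (0.0623). B cells are the classical high expressers of this gene, and the B cell list given above also summed higher in OT-1 early and mature libraries than in those of both other lines, with Blk the largest part there and Pax5 at or below 0.14 in every OT-1 library. The sorts took CD4+CD8+ and CD4-CD8+ cells, and the OT-1 mice were Rag2KO, a genotype in which no mature B cells form. What the sorts let through was not measured here. The part of the list in the St6gal1 differences was not tested.

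The group mean of St6gal1 was highest at the late stage in every line. It rose from early to late by 0.75 ± 0.16 (adjusted p = 0.00115) in TG6 and 1.06 ± 0.14 (8.47e-06) in F5, while OT-1, already high early, had no called change. It then fell to the mature stage by 0.57 on the log2 scale in TG6 (SE 0.16, 0.0133), 0.58 in F5 (SE 0.14, 0.00581) and 0.53 in OT-1 (SE 0.14, adjusted p = 0.0101). The TG6 fall was lost without TG6 mature replicate 3 or TG6 late replicate 1 or 2 (0.0662 to 0.102).

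**Figure D3:**
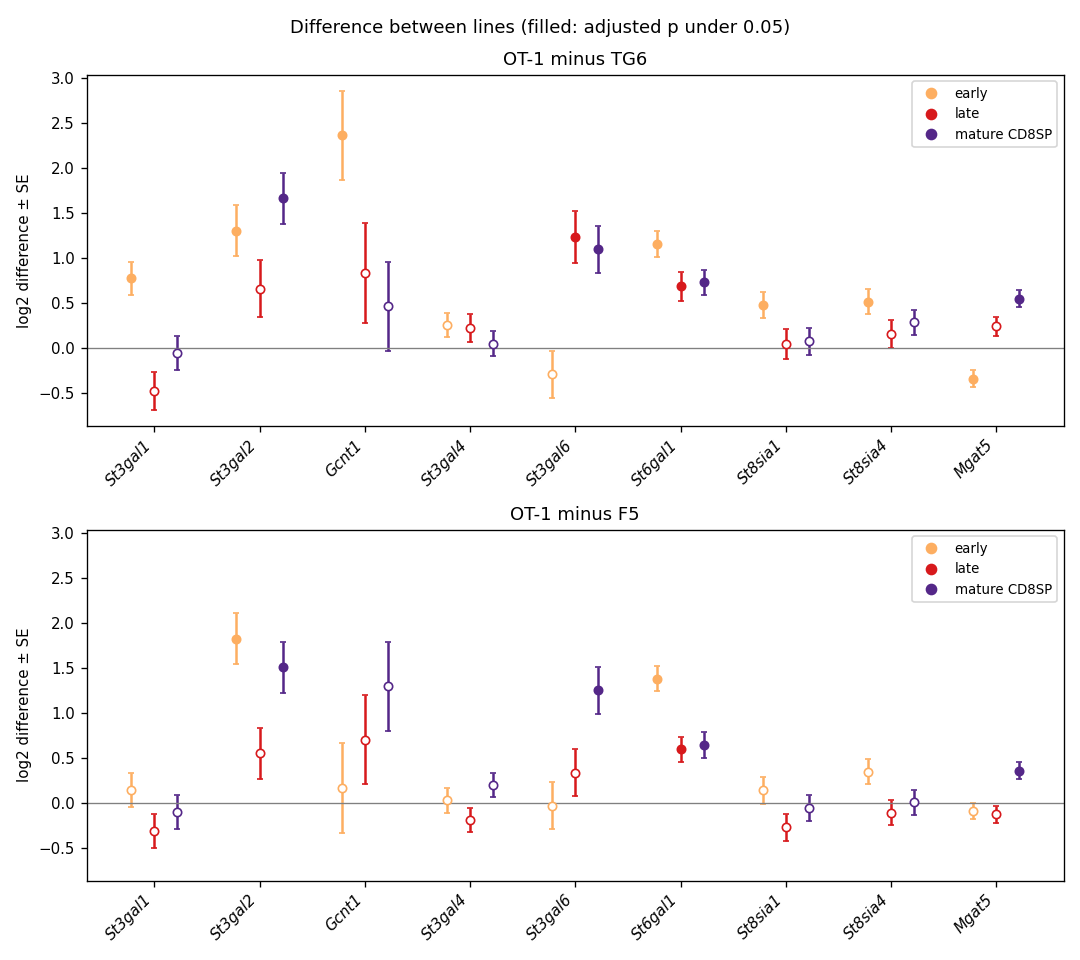
Difference in log2 level (± SE) of OT-1 from TG6 (top) and from F5 (bottom) at the 3 stages; filled points have an adjusted p under 0.05. St6gal1 is filled at all 3 stages in both panels, from 0.60 to 1.39, and Mgat5 goes from -0.34 early to 0.56 mature against TG6.

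St8sia1, the GD3 ganglioside synthase, and St8sia4, a polysialyltransferase whose product is carried by neuropilin-2 and by CCR7 on some leukocytes, both fell from the late to the mature stage in TG6 and F5, and St8sia1 in OT-1 too. St8sia1 went from 4574 and 4204 to 3380, 2832 and 2007 normalized counts in TG6, from 5290, 5456 and 5687 to 3160, 2464 and 3255 in F5 and from 4667, 4046 and 4979 to 2693, 2793 and 3011 in OT-1. No mature library of a line reached a late one. St8sia1 fell by 0.71 on the log2 scale in TG6 (SE 0.16, adjusted p = 0.00319), fell by 0.90 in F5 (SE 0.15, 0.000123) and fell by 0.68 in OT-1 (SE 0.15, 0.00177). St8sia4 went from 1622 and 1649 to 1248, 1207 and 1066 in TG6 and from 1712, 2041 and 2193 to 1276, 1386 and 1611 in F5. It fell by 0.48 in TG6 (SE 0.15, adjusted p = 0.0285) and by 0.48 in F5 (SE 0.14, adjusted p = 0.0171). The TG6 call of St8sia4 was lost without TG6 mature replicate 3 or either TG6 late replicate (0.0997 to 0.145) and the F5 call without F5 mature replicate 1 or 2 or F5 late replicate 2 or 3 (0.0555 to 0.0913) and with quantile normalization (0.0593). In OT-1 the late values of 1746, 1630 and 2161 overlapped with the mature ones of 1337, 1226 and 1787, and the change was not called in the reported fit. A fall was called in OT-1 with the replicate number as a block (log2 change -0.36, adjusted p = 0.00311) and without OT-1 mature replicate 3 (-0.52, 0.0121).

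In the early population OT-1 exceeded TG6 for both genes. St8sia1 held 5227, 5447 and 5219 in OT-1 against 4314, 4114 and 3074 in TG6, and St8sia4 2154, 1932 and 2452 against 1540, 1672 and 1352. The ranges did not overlap, and the differences were 0.48 ± 0.15 (adjusted p = 0.0178) and 0.52 ± 0.14 (0.00789). The St8sia1 call was lost without OT-1 early replicate 2 or TG6 early replicate 3 (0.058 to 0.114) and with equal library totals or quantile normalization (0.0757 to 0.0809), and the St8sia4 call with equal totals (0.0522). Over the 26 libraries Pearson's r between the log2 levels of the pair was 0.849, a description over libraries that share mice, stages and a normalization.

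The 250 bases before the start of each gene are shown because both genes were called in the same direction in those comparisons (RefSeq, GRCm38.p6, written 5′ to 3′ on the strand of the gene). The St8sia1 window is chr6:142964453-142964702 and the St8sia4 window chr1:95667595-95667844, both for genes on the minus strand. Capitals mark TGTGGT, the core letters bound by Runx factors.
St8sia1: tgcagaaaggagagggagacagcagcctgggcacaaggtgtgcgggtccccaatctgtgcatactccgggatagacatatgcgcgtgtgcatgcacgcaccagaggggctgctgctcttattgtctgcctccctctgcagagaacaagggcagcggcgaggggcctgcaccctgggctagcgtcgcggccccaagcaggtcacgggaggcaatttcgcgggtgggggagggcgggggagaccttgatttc
St8sia4: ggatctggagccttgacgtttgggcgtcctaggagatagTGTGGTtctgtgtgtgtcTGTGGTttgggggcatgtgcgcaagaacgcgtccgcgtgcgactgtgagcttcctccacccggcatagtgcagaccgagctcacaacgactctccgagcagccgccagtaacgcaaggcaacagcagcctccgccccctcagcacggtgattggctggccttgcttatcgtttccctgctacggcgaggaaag
St8sia4 holds TGTGGT at 2 places, starting 211 and 193 bases before the start, and St8sia1 holds none. On either strand, 14.0% of 32851 such windows hold these letters. Neither window holds the E-box letters CAGGTG, found in 17.2% of windows. The Ets letters CCGGAA, found in 12% of them, are in neither. The Egr letters GCGTGGG, found in 4.3%, are in neither. A match is a description of the sequence only.

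Mgat5 was highest in the early population of every line. TG6 early held 4151, 4179 and 4008 normalized counts, F5 early 3647, 3427 and 3305 and OT-1 early 3356, 3274 and 3150. Late libraries held 1470 and 1412 in TG6, 1946, 1966 and 1685 in F5 and 1732, 1612 and 1788 in OT-1. Mature libraries held 1126, 1096 and 1414 in TG6, 1497, 1339 and 1299 in F5 and 1736, 1675 and 1905 in OT-1. Every early library was above every late and mature one. Mgat5 fell from early to late by 1.51 on the log2 scale in TG6 (SE 0.10, adjusted p = 7.61e-10), by 0.89 in F5 (SE 0.09, 4.69e-07) and by 0.93 in OT-1 (SE 0.09, adjusted p = 3.74e-07). OT-1 was below TG6 in the early population (log2 difference -0.34 ± 0.09, adjusted p = 0.00949) and 0.56 ± 0.09 above it in mature cells (0.000375), where it was also 0.36 ± 0.09 above F5 (0.00723), a call lost with equal library totals (0.0668). At the late stage F5 was 0.37 ± 0.10 above TG6 (adjusted p = 0.039). That late call was lost without F5 late replicate 1 or 2 or TG6 late replicate 1 or 2 (0.108 to 0.281) and in 6 of 9 other settings (0.0525 to 0.206). From late to mature Mgat5 fell by 0.44 in F5 (SE 0.09, adjusted p = 0.00153). In TG6 the change of -0.26 was not called in the reported fit, but was with equal library totals (-0.37, adjusted p = 0.00756), with quantile normalization (-0.32, 0.0149) and without TG6 mature replicate 3 (-0.38, 0.00643). The preselection list named above was also highest in the early libraries and there in TG6, and its part was not tested.

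**Figure D4:**
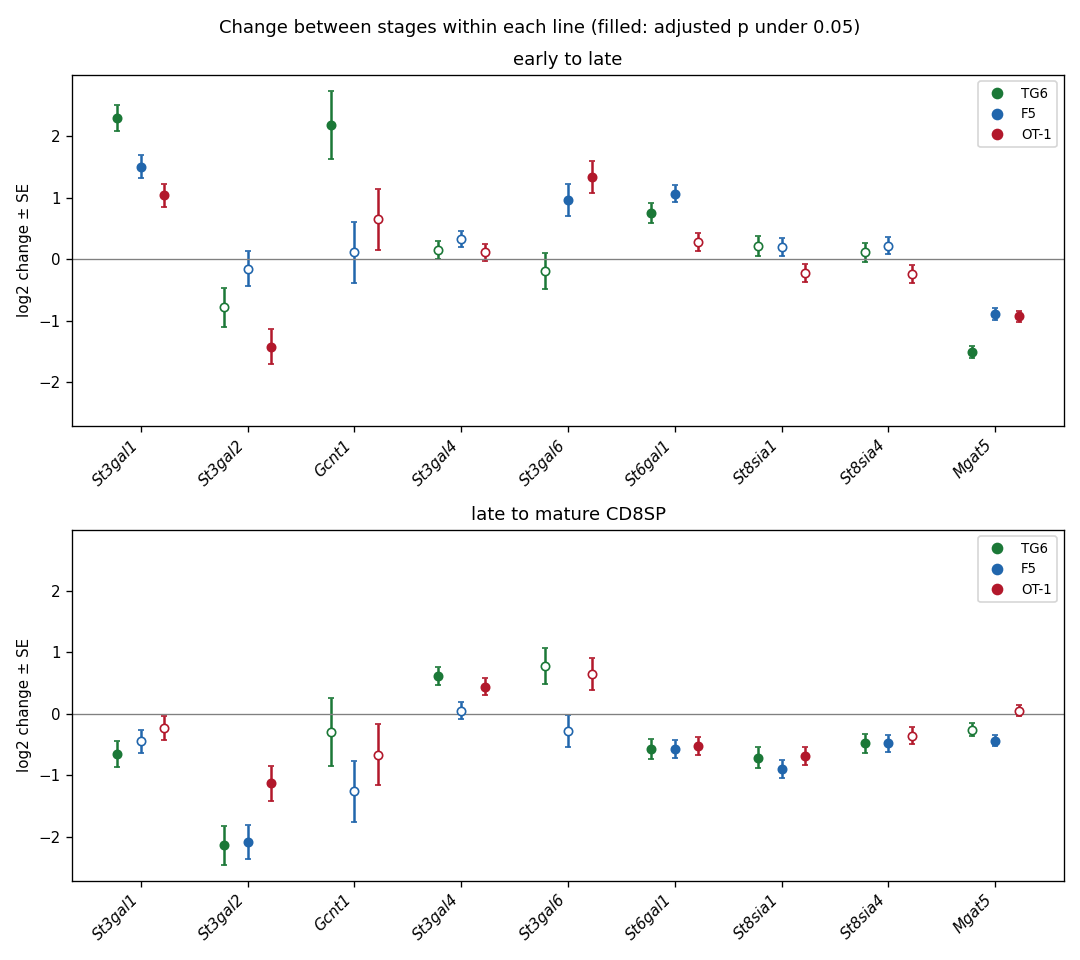
Log2 change (± SE) of each gene from early to late (top) and from late to mature CD8SP (bottom) in each line; filled points have an adjusted p under 0.05. St3gal1 rises by 1.04 to 2.29 and Mgat5 falls in all lines in the top panel, and St3gal2, St6gal1 and St8sia1 are below 0 in all lines in the bottom panel.

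Whether a stage change differed between lines was tested as a difference of changes. For the step from early to late, 3 genes were called between OT-1 and TG6 (2.04% of all genes), 1 between OT-1 and F5 (1.68%) and 1 between F5 and TG6 (2.08%). The rise of St3gal1 was smaller in OT-1 than in TG6 by 1.25 (difference -1.25 ± 0.28, adjusted p = 0.0218), and St3gal6 rose in OT-1 by 1.52 ± 0.39 more than it changed in TG6 (0.0436). The fall of Mgat5 was smaller by 0.58 ± 0.14 in OT-1 than in TG6 (0.0286) and by 0.62 ± 0.14 in F5 than in TG6 (0.017). St6gal1 rose less in OT-1 than in F5 (difference -0.79 ± 0.20, adjusted p = 0.0497). The St3gal1 call was lost without OT-1 late replicate 2, OT-1 early replicate 1, TG6 late replicate 1 or 2, or TG6 early replicate 3 (adjusted p 0.0592 to 0.11). The St3gal6 call was lost without any library of these groups other than TG6 early replicate 1 (0.07 to 0.192), and without a filter, with either other scaling and without a prior trend (0.054 to 0.0624). So was the OT-1 Mgat5 call without any library other than OT-1 late replicate 2 (0.0508 to 0.151) and without a prior trend (0.05). The St6gal1 call was lost in 9 of 12 fits (0.0542 to 0.137), all but those without F5 late replicate 2, F5 early replicate 1 or OT-1 early replicate 3, and in 5 of 9 other settings (0.051 to 0.0873). The F5 Mgat5 call was lost without TG6 late replicate 1 or 2 (0.0636 to 0.11).

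For the step from late to mature, no gene of the 9 was called between OT-1 and TG6 (1.17% of all genes), OT-1 and F5 (0.843%) or F5 and TG6 (0.116%) in the reported fit. With the replicate number as a block Mgat5 was called between OT-1 and F5 (difference 0.49, adjusted p = 0.0246), in a fit where 3.87% of all genes were. Leaving out 1 library moved the shares of all genes to 0.44% (TG6 late replicate 2) and 3.25% (TG6 mature replicate 3) for OT-1 and TG6. For OT-1 and F5 they ranged from 0.495% (OT-1 late replicate 1) to 1.38% (F5 late replicate 1), and for F5 and TG6 from 0.0244% (TG6 late replicate 2) to 0.208% (TG6 mature replicate 3). By limma, 2, 3 and 2 genes had an unadjusted p under 0.05.

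**Figure D5:**
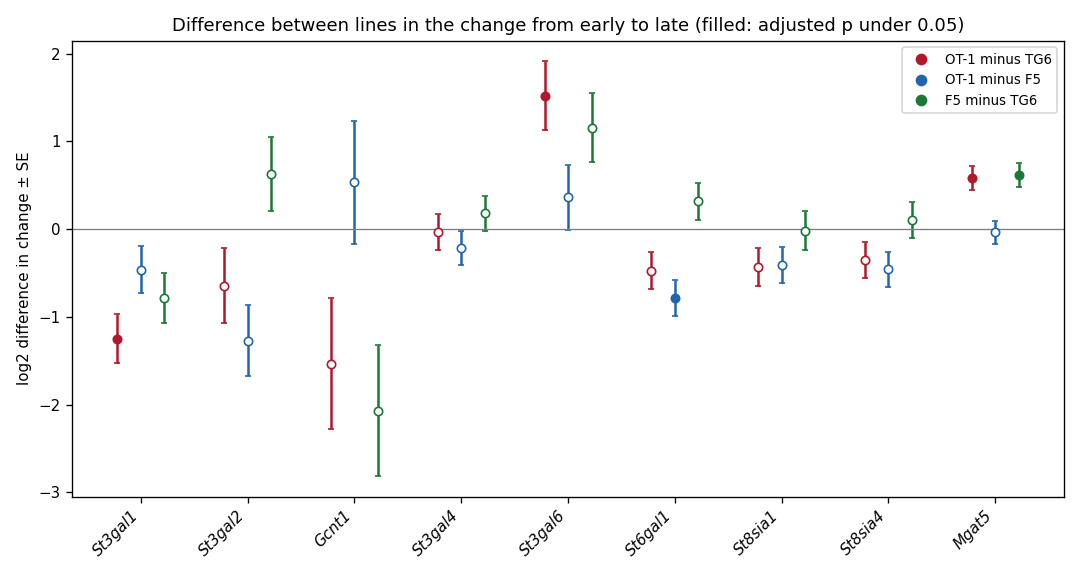
Difference between lines in the log2 change from early to late (± SE), for 3 pairs of lines; filled points have an adjusted p under 0.05. Filled points are St3gal1 (-1.25), St3gal6 (1.52) and Mgat5 (0.58) for OT-1 minus TG6, St6gal1 (-0.79) for OT-1 minus F5 and Mgat5 (0.62) for F5 minus TG6.

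Other genes of surface glycans were taken from a list of 88, of which 70 were tested. The list also holds genes that make no glycan, Ccr7, Cd5 and Cd44 among them, and they are counted in its shares. In early cells 12 of the 70 were higher and 13 lower in OT-1 than in TG6, 11 and 6 in late cells and 10 and 6 in mature cells. That is 35.7%, 24.3% and 22.9% of the list, beside 27.8%, 15.5% and 9.74% of all genes. In fits of only the groups compared the mature count of 16 was 4 (5.71%, beside 1.65% of all genes). The largest called differences early were in Chst2, a sulfotransferase of selectin ligands (573 normalized counts in OT-1 and 41.0 in TG6, log2 difference 3.58 ± 0.84), Ccr7 (779 and 147, 2.43 ± 0.35), which is also a sort marker, the hyaluronan receptor Cd44 (218 and 73.7, 1.59 ± 0.21) and the sialidase Neu3 (389 and 1088, -1.49 ± 0.28). In late cells they were in St3gal5, the GM3 synthase that supplies St8sia1 with its substrate (135 in OT-1 and 20.3 in TG6, 2.77 ± 0.36), the galectin Lgals1 (1042 and 170, 2.63 ± 0.30), Cd5, a marker of self-reactivity (7002 and 1626, 2.10 ± 0.21), and the mannosidase Man1c1 (77.1 and 20.1, 1.85 ± 0.53). In mature cells they were in St3gal5 (121 and 27.1, 2.22 ± 0.32), the core 2 enzyme Gcnt4 (165 and 57.7, 2.02 ± 0.53), Cd44 (495 and 128, 1.95 ± 0.21) and Man1c1 (310 and 113, 1.58 ± 0.47). The late Man1c1 call was lost without OT-1 late replicate 1 or 2 or TG6 late replicate 1 or 2 (limma, adjusted p 0.06 to 0.186). In mature cells the Man1c1 call was lost without OT-1 mature replicate 1 or 2 or TG6 mature replicate 1 or 3 (0.0634 to 0.13) and the Gcnt4 call without OT-1 mature replicate 2 or 3 (0.0508 to 0.0665), and both with only the groups compared (0.191 and 0.29). The median log2 difference of the list was -0.09 early, 0.10 late and -0.03 in mature cells, beside -0.0022, 0.0017 and -0.0099 over all genes.

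From early to late 13 of the 70 list genes rose and 13 fell in TG6, 14 and 10 in F5 and 19 and 10 in OT-1. From late to mature 8 rose and 4 fell in TG6, 8 and 3 in F5 and 12 and 5 in OT-1. The shares were 37.1%, 34.3% and 41.4% of the list in the first step, beside 25.4%, 26.7% and 26.7% of all genes, and 17.1%, 15.7% and 24.3% in the second, beside 22.3%, 20.5% and 24.4%. With the replicate number as a block the second step had 21 called list genes in place of 11 in F5, beside 29.3% of all genes. With only the groups compared it had 5 in place of 12 in TG6 and 7 in place of 11 in F5, beside 3.85% and 7.61% of all genes. Ccr7 is counted in the first-step shares, and its change follows the gates, since early cells were sorted CCR7- and late cells CCR7+. In TG6 the largest early to late changes were in Ccr7 (147 to 8052, log2 change 5.81 ± 0.39), Lgals1 (1291 to 170, -2.93 ± 0.30), the lactosylceramide extending enzyme B3gnt5 (290 to 40.6, -2.80 ± 0.35) and Galnt6, which starts O-glycans (1739 to 8201, 2.25 ± 0.16). In OT-1 they were in Ccr7 (779 to 9570, 3.61 ± 0.35), Man1c1 (15.3 to 77.1, 2.31 ± 0.47), B3gnt5 (217 to 48.3, -2.11 ± 0.32) and the GM2 and GD2 synthase B4galnt1 (1952 to 7133, 1.87 ± 0.23). Lgals1, whose protein binds the branched N-glycans made by Mgat5, rose from late to mature, from 170 to 1514 in TG6 (3.09 ± 0.30), 268 to 1394 in F5 (2.46 ± 0.27) and 1042 to 3818 in OT-1 (1.86 ± 0.27).

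Among 10077 other genes with a mean of at least 50 (10078 for Gcnt1), the ones whose log2 level followed each enzyme most closely over the 26 libraries were named by Pearson's r. For St3gal1 they were Galnt6 (0.976), Chst15 (0.966) and Eng (0.955), and for Mgat5 they were Sla (0.964) and Vav2 (0.961). For St3gal2 they were Ankrd6 (0.938), Coro2b (0.906) and Spred1 (0.904), and for St6gal1 they were Cd40lg, Wfs1 and Zmiz1 (0.918 each). For St8sia1 they were Ccr9 (0.914), Arap2 (0.901) and Tox (0.894), and for St8sia4 Ap1s2 (0.924), Il17rb (0.87) and Dok2 (0.864). St3gal4 was closest to Scp2 (0.904), St3gal6 to Atxn7l3 (0.863) and Gcnt1, whose low values carry much counting noise, to Fmnl3 (0.791). Among the 9 genes themselves the lowest r was that of St3gal1 with Mgat5 (-0.844). The libraries share stages, lines and mice, so these are descriptions.

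In GRCm38 the genes lie at chr15:67102875-67176830 (St3gal1), chr8:110919922-110972480 (St3gal2), chr9:35046576-35119268 (St3gal4), chr16:58468125-58524243 (St3gal6), chr16:23224740-23360350 (St6gal1), chr6:142821545-142964452 (St8sia1), chr1:95587682-95667571 (St8sia4), chr19:17326141-17372844 (Gcnt1) and chr1:127205015-127488336 (Mgat5). Besides St3gal6, exons of an opposite-strand gene cover 14.1% of the exon bases of St3gal4 (4930581F22Rik), 4.07% of St6gal1 (BC106179), 1.60% of St8sia1 (Gm7457) and 1.48% of Mgat5 (Tmem163), with the same limit.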

How the data were processed

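RNA-seq was performed on 26 libraries of sorted mouse thymocytes. Per the labels, Trimmomatic (0.32) was used for trimming, Bowtie2 (2.3.2) for alignment to mm10, RSEM (1.2.31) for quantification and DESeq2 for normalization, all by the authors. The deposited values are a signal, normalized counts that are not whole numbers, so no count test was run and raw depth per library was not analysed here. Because RSEM shares reads between similar transcripts, genes with overlapping exons on opposite strands are uncertain.

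A pseudocount of 1 was added and log2 taken, and 16372 of 46517 symbols (at least 10 in at least 2 libraries) were kept. One model with a mean per group (9 groups, 17 residual df, trended prior variance) was fitted in limma (3.58.1, R 4.3.3). Benjamini-Hochberg adjustment ran over all genes of a comparison, for 21 comparisons, and a gene was called under 0.05. The script was tested on simulated data. Sums per kilobase use merged GENCODE exons of GRCm38, and promoter windows matched 7 of the 9 members.

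Replicates are mice. The design text sorts each mouse into 3 populations, but no label states that a replicate number marks a mouse across populations, and the TG6 late libraries have a title prefix of their own. Same-number correlations of deviations from group means were 0.106 to 0.34 in F5, where all 9 pairs were over 0.1, 0.023 to 0.274 in TG6 (2 of 7) and 0.0189 to 0.178 in OT-1 (5 of 9). The number was therefore read as pairing libraries in F5 only. The fit with the number as a block, fixed within lines and random between lines, was an alternative.

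Members and lists were chosen with earlier results of these data known. All members were named, with up to 4 called list genes per comparison of the largest log2 change, a mean of at least 50 in the higher group and groups that did not overlap, and up to 3 genes of highest r for each member. Some values are not reported here. Alternatives were other pseudocounts, filters and scalings, fits of only the groups compared, no prior trend, the block, and leaving out each library.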

Additional observations from a re-analysis of the deposited data

Results flagged for a closer look

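For 4 of the 9 genes the change from early to late positive selection differed between lines by a test of the difference itself. Between OT-1 and TG6 the differences were -1.25 for St3gal1, 1.52 for St3gal6 and 0.58 for Mgat5 (log2, adjusted p 0.0218, 0.0436 and 0.0286). Between F5 and TG6 the difference was 0.62 for Mgat5 (adjusted p = 0.017), and between OT-1 and F5 it was -0.79 for St6gal1 (adjusted p = 0.0497). Of all genes 2.04% were called for OT-1 and TG6, 2.08% for F5 and TG6 and 1.68% for OT-1 and F5, and 4.47%, 4.81% and 4.45% with the replicate number as a block. Without TG6 late replicate 1 or 2 the first share was 0.825% or 0.678% and the second 1.09% or 0.953%, and without OT-1 late replicate 1 the third was 0.837%. The OT-1 and F5 results against TG6 share the 5 TG6 libraries. Leaving out 1 library ended the St3gal6 call and the Mgat5 call between OT-1 and TG6 in 10 of 11 fits each, the St6gal1 call in 9 of 12, the St3gal1 call in 5 of 11 and the F5 Mgat5 call in 2 of 11. The St3gal6 call was also lost in 4 of 9 other settings (adjusted p 0.054 to 0.0624), the St6gal1 call in 5 of 9 (0.051 to 0.0873) and the OT-1 Mgat5 call in 1 of 9 (0.05).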

How the results depend on the processing

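All 55 member results called in the reported fit kept their direction under every alternative run, in 492 values from other settings and 343 that left out a library. Of these, 44 and 71 were no longer called. A further 14 of 134 uncalled member results were called under another setting and 7 in a fit without a library.

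The count of members called moved by over 1.5 times in these cases. Between F5 and TG6 early it was 1 with a pseudocount of 0.1, without a filter, with a mean of at least 50 (where Gcnt1 was not tested), with equal totals, with quantile normalization and without a prior trend. Between F5 and TG6 late it was 0 without a filter, with equal totals, with quantile normalization, with only the groups compared, without a prior trend and with the replicate block. For the early to late difference between OT-1 and F5 it was 0 with a pseudocount of 0.1, without a filter, with equal totals and without a prior trend, and 2 with the replicate block. With only the groups compared it was 0 between OT-1 and TG6 mature, 0 for TG6 late to mature and 2 for F5 late to mature, in fits with fewer samples. The early to late difference between OT-1 and TG6 was 1 without a prior trend. With the replicate block, the late to mature difference between OT-1 and F5 was 1 and the early to late difference between F5 and TG6 was 2. Beside the calls given with the results, the block added St8sia4 in OT-1 from early to late (log2 change -0.24, adjusted p = 0.0283), Mgat5 in TG6 late to mature (-0.31, 0.0223) and the differences of St8sia4 between OT-1 and F5 (-0.46, 0.0314) and St3gal1 between F5 and TG6 (-0.56, 0.0346) from early to late. It took away the late Mgat5 call between F5 and TG6 (0.0525) and changed no other call of the 9 genes. All genes called went with it from 1.68% to 4.45%, 2.08% to 4.81% and 0.843% to 3.87% in the early to late differences of OT-1 and F5 and of F5 and TG6 and the late to mature difference of OT-1 and F5, and in OT-1 from 26.7% to 35.5% early to late and 24.4% to 35% late to mature, where called list genes went from 17 to 33. Outside F5 it is open whether the number marks a mouse, with same-number correlations of 0.023 to 0.274 (TG6) and 0.0189 to 0.178 (OT-1) beside -0.228 to 0.0921 and -0.143 to 0.0513 for other pairs. The cause of the other moves was not tested.

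Leaving out each library gave 0 to 2 between OT-1 and TG6 late, 0 to 2 between F5 and TG6 early and late, 0 to 1 between F5 and TG6 mature, 2 to 6 for TG6 late to mature and 2 to 5 for OT-1 late to mature. For the early to late differences it gave 0 to 2 (OT-1 and TG6), 0 to 1 (OT-1 and F5) and 0 to 1 (F5 and TG6). Where TG6 late kept 1 library, that library was assumed to vary like the other groups.

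Equal totals moved the median of all genes by -0.13 to 0.11 (log2) over the comparisons and quantile normalization by -0.10 to 0.06. Equal totals moved the split of all called genes, higher against lower in OT-1, from 2520 and 2035 to 1938 and 2805 (TG6, early), 1529 and 1016 to 1090 and 1710 (TG6, late), 764 and 831 to 512 and 1168 (TG6, mature), 1278 and 799 to 1009 and 1301 (F5, early), 2230 and 1697 to 1886 and 2209 (F5, late) and 2174 and 1647 to 1365 and 2600 (F5, mature). For TG6 late to mature it went from 2379 and 1276 to 1919 and 1938 (1905 and 1951 with quantile normalization), and quantile normalization took OT-1 late to mature from 2300 and 1697 to 1879 and 2188. The 60 named glycan list results kept their direction, and 17 of 538 values under other settings and 43 of 344 without a library were no longer called. Of 343 counts of called list genes under an alternative, 86 moved by over 1.5 times. With 2 or 3 mice a group, an uncalled difference is not shown to be absent, and the low Gcnt1 values limit any statement on it.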
